A study of Mus musculus with 6 samples.

Results

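The genes described here handle or sense calcium in 4T1ch9 cells, a mouse mammary tumour line of the Balb/c strain: exchangers, pumps, entry channels, release channels, calmodulin with its kinases, and calcineurin. A list of 33 genes was used, and its members were chosen by family with earlier results of these arrays known. Slc24a3, Camk2n1, Sri and Ano1 were put on the list with their difference between the viruses already known, so their values in that contrast are given as a description, with no test. The probes were selected on their detection p-values: each had to lie above the array's background (detection p under 0.05) on at least 2 of 6 arrays. Of the 33 genes, 32 had an annotated probe, and 28 had a probe that passed, out of 9754 genes that passed among 19057 annotated ones. These 28 genes were read by 52 probes that passed, of 86 annotated member probes. Itpr1 had no probe among the annotated symbols and was not analysed here.

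The cells were transduced with a virus carrying an shRNA against STC1 or a non-targeting shRNA, kept under puromycin for 5 to 6 days and profiled as bulk RNA on Illumina bead arrays. There were 2 non-targeting arrays, from cells given 6 and 18 µl of virus, 2 STC1 arrays from cells given 6 µl, and 2 from cells given 18 µl. All 6 samples therefore carried a virus and had been under selection. The labels do not say whether the arrays came from separate cultures, how many shRNA sequences were used or whether clones were picked, so the p-values reflect how far these samples differed from each other, which can be technical alone. In a bulk sample, fewer cells of a type and less RNA per cell cannot be told apart.

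Calcium is held low in the cytosol by pumps and exchangers that move it out of the cell or into stores. Store release opens through IP3 receptors, store loss is sensed by Stim proteins that open Orai channels, and the resulting calcium signal is read by calmodulin, its kinases and the phosphatase calcineurin, which acts on the NFAT transcription factors. Stanniocalcin-1, the product of Stc1, is a secreted glycoprotein first known as a calcium-regulating hormone of bony fish.

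Start-site sequences of Slc24a3, Sri, Ano1 and Ppp3r1 are shown because their readouts are RNA levels, and none is printed for Camk2n1. Each window runs from 250 bases before to 50 bases after a RefSeq start in GRCm38.p6, printed 5′ to 3′ on the gene's strand. Capitals mark the motifs searched on both strands: GGAAA, read as TTTCC on the other strand, which is the core of NFAT sites, and TGACG, read as CGTCA on the other strand, which is the core of the cAMP response element. The windows are chr2:145167525-145167824 on the plus strand for Slc24a3, chr5:8045828-8046127 on the plus strand for Sri, chr7:144738524-144738823 on the minus strand for Ano1, and chr11:17159048-17159347 on the plus strand for Ppp3r1.
Slc24a3: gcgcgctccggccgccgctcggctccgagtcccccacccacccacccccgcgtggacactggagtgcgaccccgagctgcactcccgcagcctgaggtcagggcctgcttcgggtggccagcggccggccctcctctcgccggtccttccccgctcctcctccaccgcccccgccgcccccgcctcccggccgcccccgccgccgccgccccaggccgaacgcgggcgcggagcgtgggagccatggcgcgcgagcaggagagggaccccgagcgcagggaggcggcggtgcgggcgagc
Sri: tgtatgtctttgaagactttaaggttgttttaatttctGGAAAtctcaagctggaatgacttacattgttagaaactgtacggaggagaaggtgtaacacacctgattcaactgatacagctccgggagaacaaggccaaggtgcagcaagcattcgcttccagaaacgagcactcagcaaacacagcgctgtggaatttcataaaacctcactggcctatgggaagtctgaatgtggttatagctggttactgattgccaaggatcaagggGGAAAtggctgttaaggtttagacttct
Ano1: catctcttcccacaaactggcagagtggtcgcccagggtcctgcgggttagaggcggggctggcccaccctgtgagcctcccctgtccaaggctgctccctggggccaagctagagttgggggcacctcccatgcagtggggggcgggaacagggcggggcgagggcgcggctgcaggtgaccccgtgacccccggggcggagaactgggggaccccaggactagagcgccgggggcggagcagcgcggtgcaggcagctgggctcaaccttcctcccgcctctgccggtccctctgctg
Ppp3r1: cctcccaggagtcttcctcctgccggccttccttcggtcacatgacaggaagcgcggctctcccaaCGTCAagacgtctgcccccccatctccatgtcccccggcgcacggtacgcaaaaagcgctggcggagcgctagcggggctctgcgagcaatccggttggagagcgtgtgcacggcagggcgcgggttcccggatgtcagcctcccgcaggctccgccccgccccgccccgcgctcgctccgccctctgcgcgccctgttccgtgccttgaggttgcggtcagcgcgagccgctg

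The Sri window held 2 NFAT-core matches, the Ppp3r1 window held 1 match to the cAMP response core, and the Slc24a3 and Ano1 windows held neither motif. Over 32851 RefSeq start windows of the same length, 61.3% held the NFAT core and 20.8% held the cAMP response core. The match in Sri is therefore of a kind that most windows have. For Slc24a3, RefSeq listed 2 starts and the window of 1 of them is printed.

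Stc1, the targeted gene, was read by 1 probe that passed (ILMN_2777319). It read 9.05 and 9.32 (log2 intensity) with the non-targeting virus, 7.68 and 7.87 at 6 µl of STC1 virus, and 8.05 and 7.74 at 18 µl. All 4 STC1 arrays lay below both controls, and Stc1 fell by 1.35 on the log2 scale (SE 0.14, 95% interval -1.67 to -1.03, 2.54-fold lower, limma adjusted p = 0.0025). A further Stc1 probe stayed in the background on all arrays.

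Mean raw intensity was 310.6 and 271.9 on the 6 µl STC1 arrays and 228.3 to 254.2 on the other 4. Of 45281 probes, 17406 and 17507 were above background on the 6 µl STC1 arrays and 16252 to 17165 on the others. With 6 arrays in all, their number limits precision. Of 18076 probes tested, 688 were higher and 719 lower with STC1 shRNA at an adjusted p under 0.05, that is 3.81% and 3.98%. In the separate contrasts, each against both non-targeting arrays, 2% were higher and 1.82% lower at 6 µl, and 1.68% higher and 2.28% lower at 18 µl. Of the epithelial markers Krt7, Krt8 and Krt18 were above background on all arrays, whereas Krt19 and Epcam were on none. The summed intensity of the 8 epithelial markers was 11000 to 11090 with the non-targeting virus and 8623 to 11840 with STC1 shRNA. Of 6 fibroblast markers Pdgfra alone was above background on all arrays and the other 5 on none. No leukocyte or endothelial marker was above background on all arrays.

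Among the exchangers, which use the sodium gradient to move calcium, 3 genes were read. Slc24a3, chosen with its change known, encodes a potassium-dependent sodium-calcium exchanger of the plasma membrane. Its probe (ILMN_2838501) read 6.26 and 5.85 on the non-targeting arrays, 7.44 and 7.38 at 6 µl of STC1 virus, and 7.45 and 7.76 at 18 µl. The lowest STC1 array was above the higher control, and the 4 STC1 arrays had an SD of 0.17. The log2 difference was 1.46 (SE 0.15, 95% interval 1.11 to 1.80), or 2.74-fold higher with STC1 shRNA, and 0.98 without background correction. At matched virus volumes the difference was 1.15 at 6 µl and 1.76 at 18 µl.

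Slc8b1, the sodium-calcium exchanger of mitochondria, read 9.26 and 9.35 with the non-targeting virus, 9.14 and 9.21 at 6 µl and 8.69 and 9.31 at 18 µl. The STC1 arrays reached into the control range, with a log2 difference of -0.22 (95% interval -0.60 to 0.17, limma adjusted p = 0.458). Slc8a1, the sodium-calcium exchanger of the plasma membrane, was near background: 4.71 and 4.95 in the controls, 4.88 and 5.17 at 6 µl, and 5.07 and 4.51 at 18 µl. These values overlapped (log2 difference 0.08, 95% interval -0.32 to 0.48, limma adjusted p = 0.81), and 1 control and 3 STC1 arrays detected the probe.

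**Figure D1:**
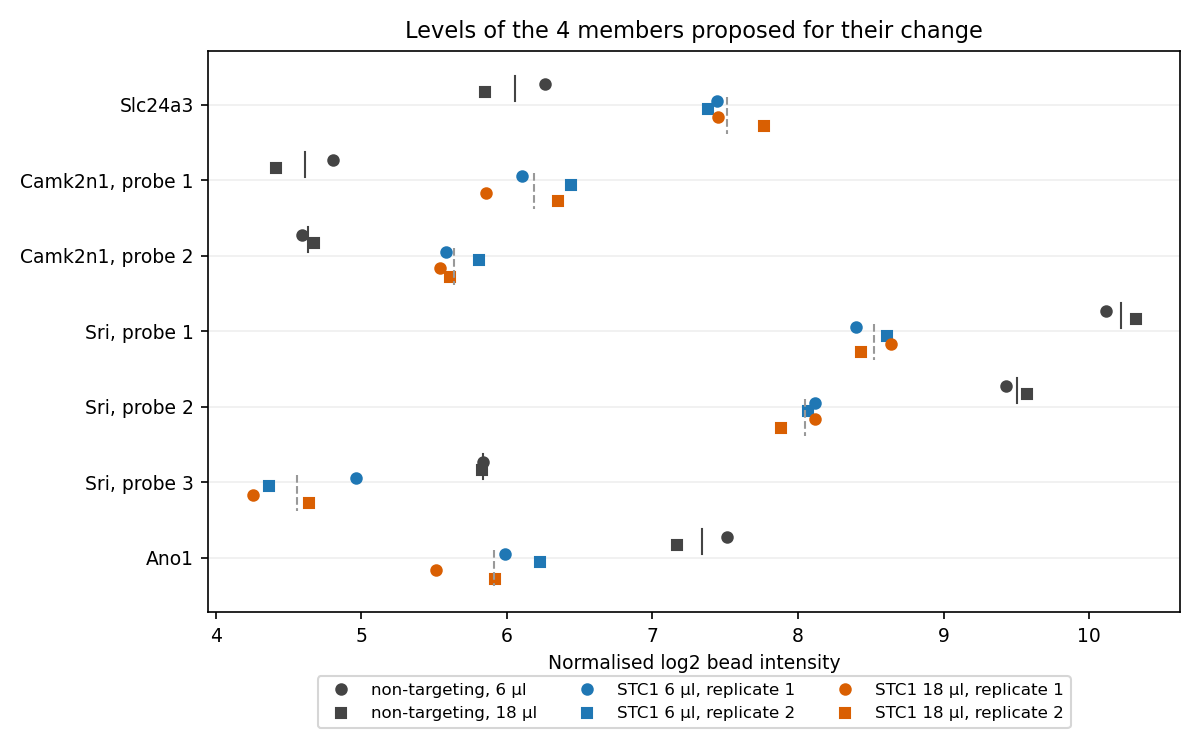
Log2 intensity after background correction and quantile normalisation (horizontal axis) of the probes of Slc24a3, Camk2n1, Sri and Ano1 on each of the 6 arrays, coloured by virus and volume; short solid lines are non-targeting means and dashed lines STC1 means. In each row all 4 STC1 arrays lie on the same side of both non-targeting arrays, as for Slc24a3, where they sit between 7.38 and 7.76 against 5.85 and 6.26.

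Sri encodes sorcin, a penta-EF-hand protein that binds ryanodine receptors and other partners when calcium rises. Probe 1 of Sri read 10.12 and 10.32 with the non-targeting virus, 8.40 and 8.61 at 6 µl and 8.64 and 8.43 at 18 µl. Probe 2 read 9.43 and 9.57, then 8.12 and 8.07, then 8.12 and 7.88 in the same order. On both probes every STC1 array was more than a full log2 unit below the lower control. The log2 difference was -1.69 for probe 1 (SE 0.13, 95% interval -1.99 to -1.40, 3.24-fold lower) and -1.45 for probe 2 (SE 0.12, 95% interval -1.73 to -1.18, 2.74-fold lower).

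Probe 3 of Sri was dim: 5.83 and 5.83 in the controls, 4.97 and 4.37 at 6 µl and 4.25 and 4.64 at 18 µl. It was above background on both controls and 1 of 4 STC1 arrays, with neither 18 µl array among them, so at 18 µl the readings give only a bound of at least 2.15-fold lower. Its fitted log2 difference, which sets 3 STC1 arrays at readings not above background, was -1.28 and was -0.60 without background correction. The fourth Sri probe stayed in the background throughout.

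Ano1 encodes a chloride channel that calcium opens. Its probe read 7.51 and 7.17 with the non-targeting virus, 5.99 and 6.23 at 6 µl and 5.51 and 5.92 at 18 µl. All STC1 arrays were below both controls, by a log2 difference of -1.43 (SE 0.16, 95% interval -1.79 to -1.07, 2.69-fold lower), and -0.93 without background correction. At matched volumes the difference was -1.40 at 6 µl and -1.46 at 18 µl.

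Camk2n1 encodes an inhibitor of calmodulin-dependent kinase II. Probe 1 of Camk2n1 read 4.81 and 4.42 in the controls, 6.10 and 6.44 at 6 µl, and 5.85 and 6.35 at 18 µl. It was above background on 1 control and on all 4 STC1 arrays, which lay above both controls. The log2 difference was 1.57 (SE 0.18, 95% interval 1.16 to 1.99, 2.98-fold higher), but 0.75 without background correction and 0.90 in the authors' processed values.

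Probe 2 of Camk2n1 read 4.59 and 4.68 in the controls, 5.59 and 5.81 at 6 µl, and 5.54 and 5.61 at 18 µl. It was not above background on either control, which leaves a bound of at least 1.85-fold higher, from the controls set at the lowest signal that counts as above background. Its fitted log2 difference was 1.00 (SE 0.12), and 0.43 without background correction. How large the Camk2n1 difference is therefore depends on how background was treated. Probe 2 passed the detection rule only through STC1 arrays, so its direction is no support for a higher level.

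These 4 genes were put on the list for their difference between the viruses, and virus volume was compared on them as a separate contrast. Whether earlier results at each volume entered that choice is not known here. A small volume difference in these genes may therefore come partly from the choice. Over all 18076 probes, 0% passed at an adjusted p under 0.05 between 18 and 6 µl of STC1 virus in limma, with 1230 at an unadjusted p under 0.05. Also 0% passed for a difference between the STC1 effects at the 2 volumes, with 773 at an unadjusted p under 0.05, in a model with 1 non-targeting array at each volume and 2 residual degrees of freedom. Between the volumes, the 7 probes of Slc24a3, Camk2n1, Sri and Ano1 differed by -0.39 to 0.19 on the log2 scale, with a smallest limma adjusted p of 0.723. None of the 7 reached an unadjusted p under 0.05 between the volumes, which does not show that the volumes act alike.

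**Figure D2:**
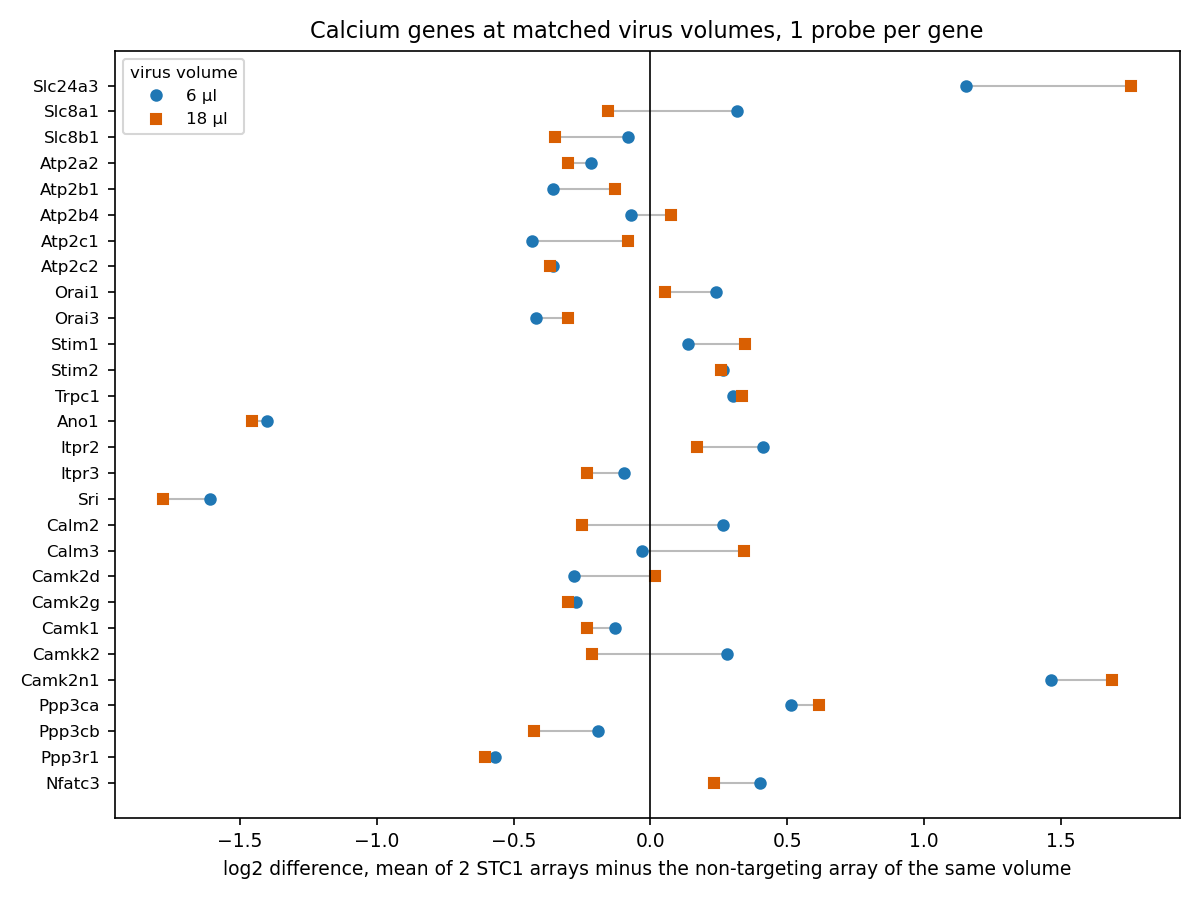
Log2 difference (horizontal axis) between the mean of the STC1 arrays and the non-targeting array of the same virus volume, 1 probe for each of the 28 genes, with circles for 6 µl and squares for 18 µl. Slc24a3 lies at 1.15 and 1.76, Ano1 at -1.40 and -1.46 and Ppp3r1 at -0.57 and -0.61, and each value rests on 1 non-targeting array.

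The other 29 genes give the picture of the rest of the calcium machinery: 24 of them had a probe that passed, with 45 probes. Over all 18076 probes 3.81% were higher and 3.98% lower with STC1 shRNA at a limma adjusted p under 0.05. Of the 45 probes 1 was higher (2.22%) and 4 were lower (8.89%), and 40 did not pass. With median scaling 5 were higher and 0 lower, and with either non-targeting array or either 6 µl array left out 0 were higher and 0 lower. At an unadjusted p under 0.05 there were 18 of the 45, against 4696 of all 18076 probes. At 6 µl 1 probe was higher and 2 lower, and at 18 µl 0 were higher and 1 lower, against the shares of all probes given above. Taking for each gene its probe of highest mean signal, 0 were higher, 1 was lower (4.17%) and 23 did not pass, where 4.45% of all genes were higher and 3.72% lower. The median log2 difference was -0.06 over these 24 genes, against 0.03 over all genes. All 4 STC1 arrays lay beyond both controls on 20 of the 45 probes (44.4%), against 35.4% of all probes tested. Intervals were wide for small differences, since standard errors ran from 0.11 to 0.20 on the log2 scale.

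**Figure D3:**
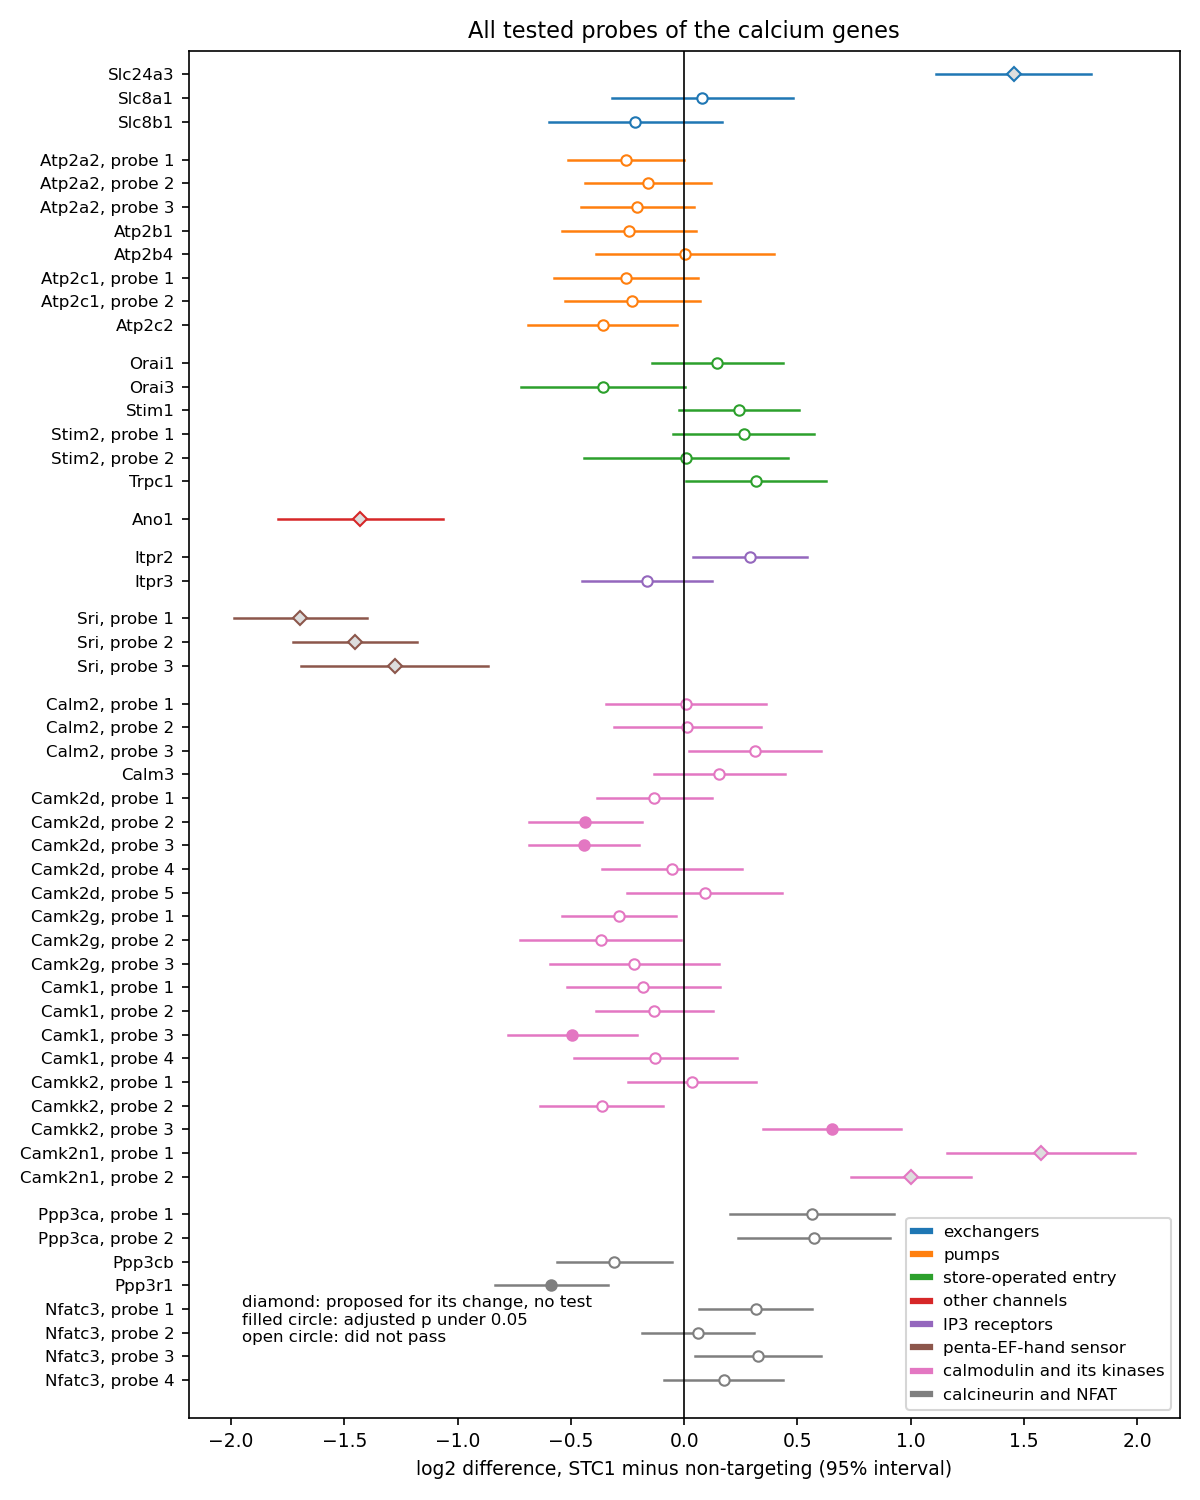
Log2 difference (STC1 minus non-targeting, horizontal axis) of the 52 member probes tested, with 95% intervals, ordered by subgroup. Diamonds mark the 4 genes chosen with their change known, which have no test, filled circles an adjusted p under 0.05 and open circles probes that did not pass; outside the diamonds the differences run from -0.59 to 0.65.

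No probe of the calcium pumps passed the test, 8 probes in 5 genes, and 2 of the 8 had an unadjusted p under 0.05 in limma, a share close to the 4696 of 18076 over all probes. Their median over genes was -0.26 and their range -0.36 to 0.00 on the log2 scale. With the arrays scaled by their medians, 3 of the 8 pump probes lay above 0, against 1 in the main fit. That scaling also put the median of all probes at 0.15, against 0.01. Atp2c2, a Golgi calcium and manganese pump, read 5.79 and 5.60 in the controls, 5.22 and 5.66 at 6 µl and 5.28 and 5.19 at 18 µl. One 6 µl array lay between the controls, and the log2 difference was -0.36 (95% interval -0.69 to -0.03, limma adjusted p = 0.159).

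Atp2a2, the widely expressed pump of the endoplasmic reticulum (SERCA), read 10.48 and 10.52 on probe 1 in the controls, 10.31 and 10.21 at 6 µl and 10.31 and 10.14 at 18 µl. The STC1 arrays lay below both controls, yet the log2 difference of -0.26 (SE 0.11) did not pass (limma adjusted p = 0.19). Its probes 2 and 3 gave log2 differences of -0.16 and -0.21, which did not pass either. Atp2b1, a pump of the plasma membrane, read 6.69 and 6.43, then 6.47 and 6.21, then 6.34 and 6.26, and overlapped the controls at 6 µl (log2 difference -0.24, limma adjusted p = 0.281). Atp2c1, a further Golgi pump, differed by -0.26 and -0.23 on its probes and Atp2b4, a pump of the plasma membrane, by 0.00. Atp2a3 was not above background on enough arrays with any of its 3 probes.

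None of the store-operated entry genes passed the test, and their 6 probes ran from -0.36 to 0.32 with a median of 0.24 over 5 genes. Of the 6 probes 1, that of Trpc1, had an unadjusted p under 0.05 in limma, against 4696 of 18076 over all probes. Orai3, a pore subunit, read 7.48 and 7.40 in the controls, 7.07 and 7.05 at 6 µl and 7.39 and 6.82 at 18 µl. The 18 µl arrays were far apart and the higher of them came close to the controls. Orai3 differed by -0.36 on the log2 scale (SE 0.16, limma adjusted p = 0.197), and by -0.50 with an adjusted p of 0.0406 once STC1 18 µl replicate 1 was left out.

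Stim1, the sensor of calcium in the store, read 7.13 and 7.02 in the controls, 7.37 and 7.16 at 6 µl and 7.33 and 7.40 at 18 µl. The STC1 arrays were above the controls by a margin that did not pass (log2 difference 0.24, SE 0.12, limma adjusted p = 0.229). Stim2, its paralogue, differed by 0.26 on probe 1 and 0.01 on probe 2, and Orai1, the main pore subunit, by 0.15. Trpc1, a cation channel subunit, read 4.39 and 4.48 in the controls, 4.82 and 4.55 at 6 µl and 4.67 and 4.97 at 18 µl. It was above background on 2 STC1 arrays and on neither control, so it passed the detection rule only through STC1 arrays and its log2 difference of 0.32 (limma adjusted p = 0.181), the top of the range of this subgroup, is no support for a higher level. Orai2, Trpv6, an epithelial entry channel, and Casr, the calcium-sensing receptor, had no probe that passed detection.

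Itpr2 and Itpr3, release channels of the endoplasmic reticulum opened by IP3, did not pass the test. Of their 2 probes 1 had an unadjusted p under 0.05 in limma, against 4696 of 18076 over all probes. Itpr2 read 7.52 and 7.41 in the controls, 7.94 and 7.92 at 6 µl, and 7.52 and 7.65 at 18 µl. The 6 µl arrays stood above both controls while an 18 µl array was level with the higher control. The log2 difference of Itpr2 was 0.29 over both volumes (SE 0.11, limma adjusted p = 0.141), and 0.47 with an adjusted p of 0.0472 when arrays were scaled by their medians, which put the median of all probes at 0.15. Itpr3 read 9.52 and 9.51, then 9.37 and 9.48, then 9.12 and 9.44, with a log2 difference of -0.16 (SE 0.13, limma adjusted p = 0.455). Every STC1 array of Itpr3 was below the controls, with the 18 µl arrays far apart.

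Among calmodulin and its kinases, probes of 1 gene often disagreed. Calm2 and Calm3, which encode calmodulin, did not pass: Calm2 differed by 0.01, 0.01 and 0.31 on its 3 probes and Calm3 by 0.16. Camkk2, the kinase that activates the calmodulin-dependent kinases I and IV, rose on probe 3, which read 5.54 and 5.65 in the controls, 6.43 and 6.58 at 6 µl and 5.81 and 6.17 at 18 µl. All STC1 arrays were above the controls on that probe, the 6 µl arrays furthest. Camkk2 probe 3 rose by a log2 difference of 0.65 (SE 0.13, 1.57-fold, limma adjusted p = 0.0265).

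Probe 1 of Camkk2 read 6.76 and 7.07 in the controls, 7.06 and 7.01 at 6 µl and 6.84 and 6.88 at 18 µl, and overlapped them (log2 difference 0.03, limma adjusted p = 0.893). Probe 2 read 6.35 and 6.44, then 6.15 and 5.90, then 6.08 and 6.00, below both controls, and did not pass (log2 difference -0.36, limma adjusted p = 0.0972). The 3 probes of Camkk2 thus gave no common direction. The rise on probe 3 no longer passed when any array other than STC1 18 µl replicate 1 was left out: adjusted p was 0.166 and 0.1 without non-targeting replicates 1 and 2, 0.058 and 0.0924 without the 6 µl replicates, and 0.052 without 18 µl replicate 2.

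Camk2d encodes a catalytic subunit of calmodulin-dependent kinase II, the enzyme that Camk2n1 inhibits, and 5 of its 11 probes passed detection. Probe 2 of Camk2d read 7.77 and 7.90 in the controls, 7.33 and 7.34 at 6 µl, and 7.41 and 7.50 at 18 µl. Probe 3 read 6.10 and 6.04, then 5.47 and 5.38, then 5.85 and 5.81. On both probes all STC1 arrays lay below the controls, and each fell by 0.44 on the log2 scale (SE 0.11, limma adjusted p = 0.047 and 0.0425). Probe 1, of highest mean signal, overlapped the controls: 7.77 and 7.66, then 7.44 and 7.54, then 7.73 and 7.63 (log2 difference -0.13, limma adjusted p = 0.499). Probes 4 and 5 differed by -0.05 and 0.09. The calls on probes 2 and 3 were lost whichever array was left out. Of 14 other settings, the call held in 6 for probe 2 and in 2 for probe 3. The mean of all tested Camk2d probes differed by -0.19 and did not pass (limma adjusted p = 0.24).

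Camk1, calmodulin-dependent kinase I, fell on its probe 3, which read 6.63 and 6.59 in the controls, 6.34 and 6.08 at 6 µl and 5.92 and 6.13 at 18 µl. All STC1 arrays were below the controls (log2 difference -0.49, SE 0.13, limma adjusted p = 0.0494). The other probes of Camk1 differed by -0.18, -0.13 and -0.13 and did not pass, and the call on probe 3 did not hold in 11 of 14 other settings. Camk2g, a further catalytic subunit of kinase II, differed by -0.29, -0.37 and -0.22 on its 3 probes. None of them passed (limma adjusted p = 0.143, 0.178 and 0.439), though probe 1 had an adjusted p of 0.045 without background correction. At matched volumes of 6 and 18 µl, probe 1 differed by -0.27 and -0.30, probe 2 by -0.75 and 0.01, and probe 3 by 0.06 and -0.50. Each of these values rests on 1 non-targeting array.

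**Figure D4:**
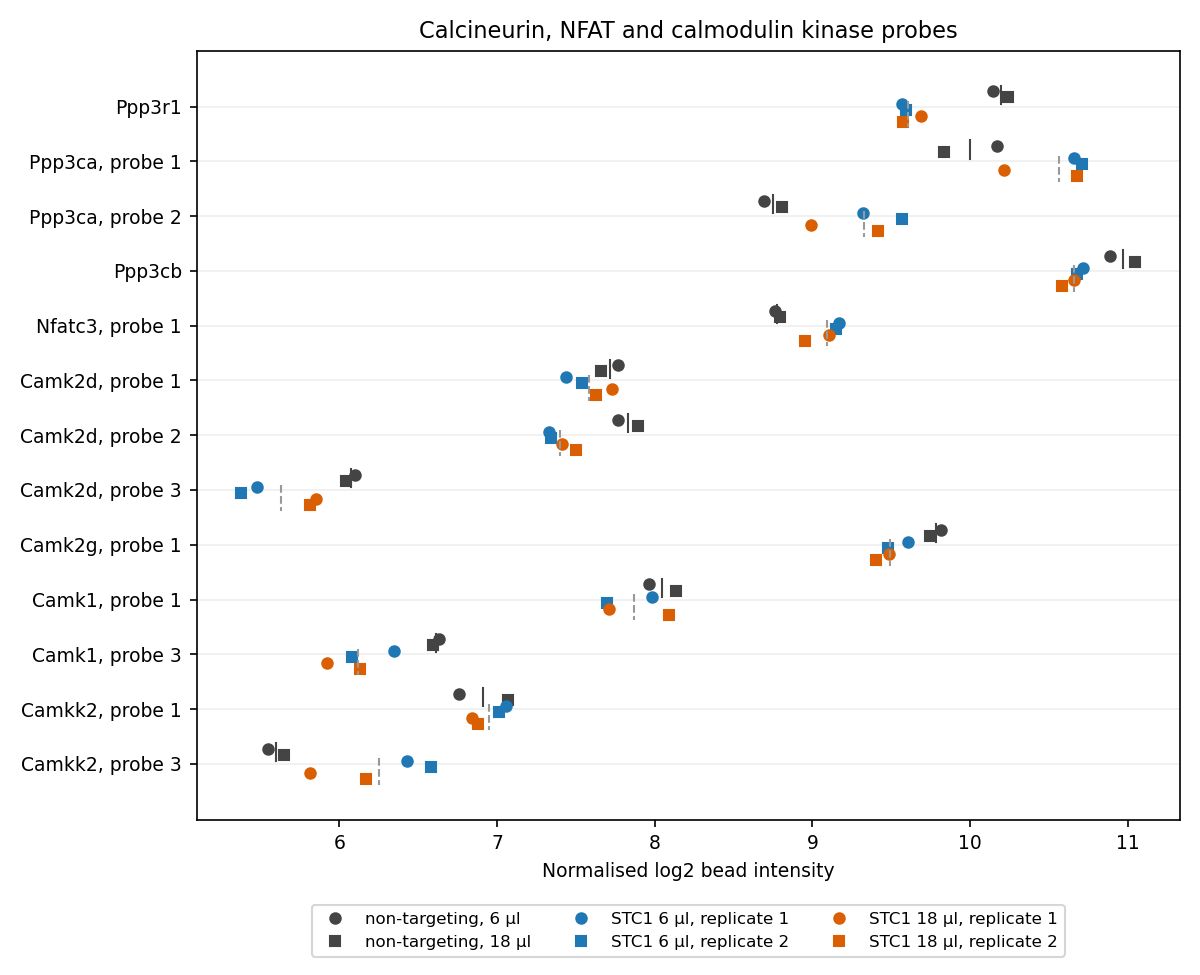
Log2 intensity (horizontal axis) on each of the 6 arrays for probes of the calcineurin, NFAT and calmodulin kinase genes, coloured by virus and volume. Shown are each gene's probe of highest mean signal and any other with a small unadjusted p in the main contrast. The other tested probes of these genes are not drawn. Short solid lines are non-targeting means and dashed lines STC1 means. Ppp3r1 lies between 9.57 and 9.69 on the STC1 arrays against 10.15 and 10.24 in the controls, while probes 1 and 3 of Camkk2 differ from each other in the gap between viruses.

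Calcineurin is built of a catalytic and a regulatory subunit. Of the 4 calcineurin and NFAT genes read, 1 passed the test, where 4.45% of all genes were higher and 3.72% lower. It is given as a single gene. Ppp3r1, the regulatory B subunit, a calcium-binding EF-hand protein, read 10.15 and 10.24 in the controls, 9.57 and 9.59 at 6 µl and 9.69 and 9.58 at 18 µl. All 4 STC1 arrays were below both controls and close to each other. Ppp3r1 fell by 0.59 on the log2 scale (SE 0.11, 95% interval -0.83 to -0.34, 1.5-fold lower, limma adjusted p = 0.0191). At 6 µl it fell by 0.61 (limma adjusted p = 0.0366) and at 18 µl by 0.56 (limma adjusted p = 0.048). Both of these contrasts use the same controls, the mean of the 6 and 18 µl non-targeting arrays, so neither is matched by volume. Leaving out non-targeting replicate 1 or 2 ended the call (adjusted p 0.101 and 0.121), as did leaving out either 6 µl replicate (0.058 and 0.0694), and the difference was -0.36 with an adjusted p of 0.14 under median scaling.

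Ppp3ca, a catalytic subunit, was read by 2 probes that narrowly missed the threshold. Probe 1 of Ppp3ca read 10.17 and 9.83 in the controls, 10.66 and 10.71 at 6 µl, and 10.21 and 10.68 at 18 µl. Probe 2 read 8.70 and 8.81, then 9.32 and 9.57, then 8.99 and 9.41. All STC1 arrays were above both controls on either probe, with STC1 18 µl replicate 1 the lowest of them. The log2 differences of Ppp3ca were 0.56 and 0.57 (SE 0.16 and 0.15, limma adjusted p = 0.0655 and 0.0509), and the mean of both probes differed by 0.57 with an adjusted p of 0.0388. Both probes passed without background correction (limma adjusted p 0.0118 and 0.00857) and with median scaling (0.000899 and 0.00134). They also passed in the authors' processed values (0.0127 and 0.00953), which lack background correction too, and with detection on all 6 arrays (0.0471 and 0.0351). Over all probes, calls rose from 1407 to 2355, 2528, 2288 and 1729 in the same order. With a replicate block only probe 2 passed, and with virus volume as a term only probe 1. Neither passed in the model of 2 groups or with no filter on dim probes. Without STC1 18 µl replicate 1 the log2 differences were 0.68 and 0.68.

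Ppp3cb, the other catalytic subunit on the list, read 10.89 and 11.05 in the controls, 10.71 and 10.68 at 6 µl, and 10.66 and 10.59 at 18 µl. Its STC1 arrays were all lower, and its log2 difference of -0.31 did not pass (SE 0.11, limma adjusted p = 0.124). Ppp3cb passed without background correction (-0.30, limma adjusted p = 0.0301) and in the authors' processed values (-0.30, limma adjusted p = 0.0462), which also lack it. In no other setting did Ppp3cb pass. Nfatc3, a transcription factor that calcineurin activates, read 8.76 and 8.80 on probe 1, then 9.17 and 9.15, then 9.11 and 8.95, above the controls throughout (log2 difference 0.32, SE 0.11, limma adjusted p = 0.113). Nfatc3 probe 1 passed with median scaling (0.50, adjusted p 0.0328), without background correction (0.29, adjusted p 0.0347) and in the authors' processed values (0.29, adjusted p 0.0488). In no other setting did that probe pass. The other probes of Nfatc3 differed by 0.06, 0.33 and 0.18, and none passed.

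At the edge of the detection rule, Trpc1, Camk2d probe 5 and Nfatc3 probe 4 were above background on 2 arrays, STC1 arrays in each case, with means of 4.44 and 4.75, 4.52 and 4.61, and 4.48 and 4.66 for non-targeting and STC1. Just outside it, probes of Slc8a1, Stim1, Trpv6, Camk2d, Camk2g and Ppp3ca were above background on 1 array. The Trpv6 probe had means of 4.72 and 4.42, and the Camk2g probe of 4.75 and 4.41. For the 24 genes tested, differences between 18 and 6 µl of STC1 virus ran from -0.66 to 0.41 on the log2 scale. The smallest limma adjusted p was 0.618. Of the 45 probes 6 had an unadjusted p under 0.05, against 1230 of all 18076 probes.

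Wider calcium genes were read through 9 lists of 148 genes, of which 136 were annotated and 78 had a probe that passed. By the probe of highest mean signal, 4 genes were higher and 4 lower (5.13% each), 70 did not pass, and the median log2 difference was 0.07. Over all genes 4.45% were higher and 3.72% lower, with a median of 0.03, so the counts in these lists lie near the background and the genes below are given as single genes. Of 12 regulators of store release and refilling, 1 passed: Cracr2b, an EF-hand paralogue of the protein that binds Orai1 and Stim1 in human T cells. Probe 1 of Cracr2b read 6.14 and 6.18 in the controls and 6.76 to 7.05 on the 4 STC1 arrays. Probe 2 read 5.13 and 5.11, then 6.33 and 6.49, then 6.38 and 6.30. Both probes had all STC1 arrays well above the controls, and Cracr2b rose by log2 differences of 0.80 (1.74-fold, limma adjusted p = 0.00889) and 1.26 (2.39-fold, limma adjusted p = 0.00131). The call on probe 2 held with any 1 array left out, and that on probe 1 was lost without either non-targeting array (highest adjusted p 0.0717). Homer1, a scaffold that binds IP3 receptors, rose by 0.47 on probe 2 (limma adjusted p = 0.0379, lost whichever array was left out) and differed by 0.40 on probe 1 (limma adjusted p = 0.104).

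Of 18 other calcium-permeable channel genes 1 passed: Tpcn1, a cation channel of endosomes and lysosomes. Probe 1 of Tpcn1 read 11.15 and 11.19 in the controls, 10.46 and 10.35 at 6 µl, and 10.12 and 10.31 at 18 µl. It fell by 0.86 on the log2 scale with all STC1 arrays below both controls (1.81-fold lower, limma adjusted p = 0.00614, and 0.0527 without non-targeting replicate 2). Its probes 2 and 3 differed by -0.33 and 0.23 and did not pass.

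Of 9 annexins, proteins that bind membranes in the presence of calcium, 2 rose and 1 fell, where 4.45% of all genes rose and 3.72% fell. Anxa6 read 8.13 and 8.21 in the controls, 8.93 and 8.82 at 6 µl, and 8.95 and 9.16 at 18 µl. All STC1 arrays were above the controls, and Anxa6 rose by a log2 difference of 0.79 (1.73-fold, limma adjusted p = 0.00827, and at most 0.0732 with a non-targeting array left out). Anxa9 rose by 0.47 (limma adjusted p = 0.0383) and Anxa11 fell by 0.51 (limma adjusted p = 0.0372). The call on Anxa9 was lost whichever array was left out, and that on Anxa11 under median scaling and with any array but STC1 18 µl replicate 1 left out (highest adjusted p 0.186 for Anxa9 and 0.207 for Anxa11).

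Of 12 S100 genes, which encode small EF-hand proteins, S100a1 rose and S100a7a fell. S100a1 read 5.72 and 5.83 in the controls, 6.67 and 6.59 at 6 µl, and 6.18 and 6.70 at 18 µl (log2 difference 0.76, 1.69-fold, limma adjusted p = 0.0252). S100a7a read 7.90 and 8.43, then 6.97 and 6.89, then 7.70 and 6.86 (log2 difference -1.06, 2.08-fold lower, limma adjusted p = 0.033). Neither overlapped the controls, and STC1 18 µl replicate 1 was the array nearest to them in both. Both calls were lost without either control or either 6 µl array, and that on S100a7a also without 18 µl replicate 2, with highest adjusted p of 0.152 for S100a1 and 0.176 for S100a7a.

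Of 10 paralogues of the members 1 fell, Nfat5, an NFAT family factor known for the response to osmotic stress and without a calcineurin site. Probe 1 of Nfat5 fell by 0.49 (limma adjusted p = 0.0414) and probe 2 by 0.82 (1.77-fold lower, limma adjusted p = 0.00671), while probe 3 differed by 0.15 and did not pass. The call on probe 1 was lost whichever array was left out, and that on probe 2 without non-targeting replicate 1 (adjusted p 0.0646). In the other lists no gene passed on the probe standing for it. The smallest p was at Capns1 among 4 penta-EF-hand genes, the family of sorcin (log2 difference -0.59, limma adjusted p = 0.0627), and at Mcu among 4 genes of mitochondrial uptake (probe 2, log2 difference 0.43, limma adjusted p = 0.0714). Among 4 calcineurin regulators it was at Chp1 (log2 difference -0.55, limma adjusted p = 0.0846). Among 5 calcium-binding proteins of the secretory pathway Calu fell by 0.63 on probe 3 (limma adjusted p = 0.0331, lost whichever array was left out), while its probes 1, 2 and 4 differed by 0.07, 0.06 and -0.70 and did not pass.

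**Figure D5:**
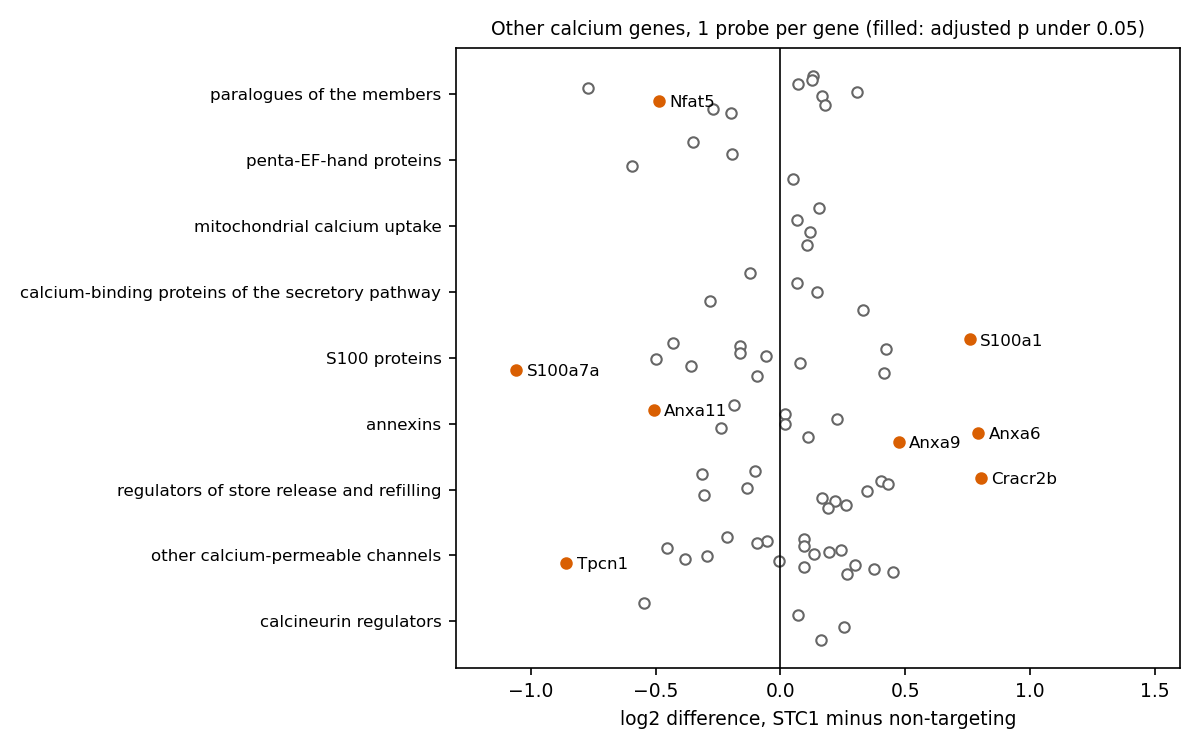
Log2 difference (STC1 minus non-targeting) of each gene tested in the 9 further calcium lists, by the probe of highest mean signal, with the lists on the other axis. Most of the 78 genes lie near 0, and 4 higher and 4 lower genes passed the test, among them Cracr2b at 0.80, Anxa6 at 0.79 and Tpcn1 at -0.86.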

How the data were processed

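Groups came from the labels. Per the labels' protocols RNA was extracted by spin column and biotinylated cRNA was hybridised to Illumina arrays; for scanner software, chip and scan date, nothing was stated in the sources used here. The deposited unprocessed table holds linear bead intensities, not normalised between arrays, and detection p-values from the scanner, per the file headers. The authors' deposited processed table holds log2 values, which equalled quantile-normalised log2 raw intensities with no background correction (largest median absolute difference 0.00015), and was used as an alternative.

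Intensities were background-corrected by way of the detection p-values, which imply 936 negative control probes, given an offset of 16, quantile-normalised and put on the log2 scale by neqc (limma 3.58.1, R 4.3.3). Probes with detection p under 0.05 on at least 2 arrays entered 1 lmFit and eBayes fit of 3 group means (3 residual degrees of freedom). The main contrast sets the average of the 6 and 18 µl STC1 groups against non-targeting; tests are two-sided with Benjamini-Hochberg adjustment over all 18076 probes. Whether the STC1 effect differed between volumes was tested in a model of 4 means. The other contrasts came from the fit of 3, where the non-targeting group holds both volumes. Its spread thus includes any difference between volumes in the controls. The fit was tested on simulated data. There 32% of 50 probes given a log2 difference of 0.5 were called in the right direction, and 100% of those given 1, 1.5 or 2. In those data 14 unchanged probes were called. The simulated noise was independent and normal with the fitted spread, and far fewer probes were changed than were called in the real data. These rates therefore do not give the sensitivity of this experiment.

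Symbols came from the platform annotation: 34885 of 45281 probes had 1 symbol, 18 had several and 10378 were unnamed here. Probes of a gene are numbered by mean signal, and the first stands for the gene. Levels of different probes are not comparable.

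Members and lists were chosen with earlier results of these data known. Values on all arrays are given for members with a probe past the threshold and for up to 3 of smallest p in each subgroup, and for each further list the genes past the threshold (up to 4), or else the gene of smallest p; Ppp3cb and the separate arrays of further genes were added after their values were seen. A fold against probes not above background uses the lowest signal among probes above it. Alternatives were background correction, scaling, the authors' values, detection filters, a replicate block, other models and leaving out each array.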

Additional observations from a re-analysis of the deposited data

How the results depend on the processing

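Counts of probes past the threshold moved with background, scaling, the filter and the arrays used. For STC1 against non-targeting, 1407 probes passed; 2355 did without background correction, 2528 with median scaling, 2288 in the authors' processed values, 787 with no filter on dim probes, and 207 to 1479 with an array left out. Median scaling put 80.8% of calls higher, against 48.9%, and the median of all probes at 0.15, against 0.01. At 6 µl, 691 passed, and 1653, 2985, 1569, 277 and 18 to 895 in the same order. At 18 µl, 717 passed, and 1567 without background correction, 1446 in the authors' values, 385 with no filter and 89 to 454 with an array left out. Between STC1 volumes 0 passed, 121 with median scaling and 0 to 1 with an array left out; for the difference between effects 0 passed, and 2 with median scaling. The fit put 12 of 52 member probes under the threshold, where 3.81% of all probes were higher and 3.98% lower; 7 of the 12 belong to the genes chosen for their change and count as no evidence. With an array left out the number was 6 to 12. Among the other 45 probes, 1 was higher and 4 lower; the numbers were 5 and 0 with median scaling, 4 and 5 without background correction, and 0 and 0 without either non-targeting or either 6 µl array. Over all member probes and alternatives, 46 of 715 values lost the call, 20 gained it, 27 that were not called changed sign and 0 called values did. Cause was not tested.

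Replicate numbers are shared between groups but mark virus volume only in the controls. Deviations of arrays with the same number correlated at -0.02, -0.11 and 0.00 for the 3 pairs of groups, so the numbers were not treated as pairs. With the replicate block, 1295, 615 and 608 probes passed in the main, 6 µl and 18 µl contrasts, and 10 member probes. Crossing the numbers of the non-targeting and 18 µl arrays, chosen after seeing the data, gave 733.

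With 2 control arrays and standard errors of 0.11 to 0.20, most member differences near 0.3 on the log2 scale could not be told from 0. Probes near background (Camk2n1, Sri probe 3, Trpc1, Slc8a1) have compressed or bounded differences. Chip and scan day are not in the sources used here, and could not be entered.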
